A study of Mus musculus with 12 samples.

Results

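Chromatin modifier and remodeler genes encode the enzymes and complexes that methylate DNA, modify histones and move nucleosomes. A list of 39 such genes was followed in TM3 cells, a mouse line derived from Leydig cells, during treatment with methoxyacetic acid (MAA), the active metabolite of the solvent ethylene glycol monomethyl ether. Members were chosen by gene symbol. The gene-name column of the scanner output held accessions, so that 0 probes matched a member symbol directly, and probes were named through the RefSeq gene table instead. In this way 38 members had at least 1 probe, 59 probes through an accession and 1, for Chd3, through a synonym. Chd7, a CHD remodeler, had no matched probe. The 39 members stand against 16017 genes with a symbol on the array, and their 60 probes are among 41174. Of the 38 members, 21 had 1 probe, 12 had 2 and 5 had 3.

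Polycomb repressive complex 2 (PRC2) methylates histone H3 through Ezh1 or Ezh2, and polycomb repressive complex 1 (PRC1) binds this mark through a Cbx subunit and ubiquitylates histone H2A through Rnf2 or Ring1 with a partner such as Bmi1. DNA methyltransferases place methyl groups that methyl-CpG binding proteins can read, and H3K9 methyltransferases mark silent chromatin. Acetyltransferases, the bromodomain proteins that bind acetylated histones, and the SWI/SNF and CHD remodelers, which use ATP to move nucleosomes, act mostly in the opposite direction or in both. MAA, a short-chain carboxylic acid, is toxic to the testis.

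MAA was added at 5 mM or at 1 mM, cells were harvested after 3, 8 and 24 h, and each of these 6 conditions was compared with cells held for the same time in culture medium alone. Every condition had 2 arrays, each with an RNA pool of 3 cultures. MAA RNA carried the green dye on replicate 1 and the red dye on replicate 2, so that dye and pool change together. The 12 arrays lay on 3 slides of 4. A log2 ratio is MAA over control, and its standard error (SE) comes from 1 limma fit of all 12 arrays. The fit has no term for dye. Its p-values therefore measure the spread between pools of 1 cell line together with that between dye orientations. As the cells were profiled in bulk, fewer cells of a kind and less RNA per cell cannot be told apart.

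Between 61.5% and 70.4% of probes were well above background in the control channel. Of the Leydig cell markers, Star, Cyp17a1 and Insl3 were well above background in all 12 control channels, whereas Cyp11a1, Hsd3b1 and Lhcgr were in none. Of the listed markers of other testicular cells, 3 of 5 Sertoli cell, 2 of 4 peritubular and smooth muscle and 3 of 4 fibroblast genes were well above background in every control channel. Of the 4 germ cell genes, Ddx4 was so in all. The 2 macrophage and 3 endothelial markers measured were so in none. Of all 29 marker genes measured, 5 were called higher and 2 lower at 5 mM 24 h, and their part in the values below was not tested. Member probes were mostly bright, as 57 of 60 had a channel that exceeded background clearly on all 12 arrays. Sin3b, a corepressor, had its only probe above background on 1 array, and no fold is given for it.

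The members called in at least 1 condition were Cbx7, Bmi1 and Smarca2. A call required an unadjusted p under 0.005 and a ratio more than 2-fold (5 mM) or 1.5-fold (1 mM) from control. The region from 250 bases before to 50 bases after the start of each of these genes is shown as RefSeq gives it (GRCm38.p6), 5′ to 3′ on the strand of the gene, because these are the called members. Capitals mark the GC box GGGCGG and the CCAAT box CCAAT on either strand.
Cbx7, chr15:79932597-79932896, minus strand: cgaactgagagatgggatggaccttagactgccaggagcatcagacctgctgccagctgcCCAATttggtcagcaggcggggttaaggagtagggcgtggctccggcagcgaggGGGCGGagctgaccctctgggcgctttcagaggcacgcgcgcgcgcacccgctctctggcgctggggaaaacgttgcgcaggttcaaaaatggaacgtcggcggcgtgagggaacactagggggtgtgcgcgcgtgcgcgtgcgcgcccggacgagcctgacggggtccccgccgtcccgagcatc
Bmi1, chr2:18676768-18677067, plus strand: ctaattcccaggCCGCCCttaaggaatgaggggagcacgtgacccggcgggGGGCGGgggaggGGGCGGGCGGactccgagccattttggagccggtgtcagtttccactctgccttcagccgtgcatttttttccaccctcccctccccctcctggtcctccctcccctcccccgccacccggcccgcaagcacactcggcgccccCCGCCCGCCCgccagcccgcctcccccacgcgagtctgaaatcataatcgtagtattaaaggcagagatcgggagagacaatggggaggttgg
Smarca2, chr19:26604910-26605209, plus strand: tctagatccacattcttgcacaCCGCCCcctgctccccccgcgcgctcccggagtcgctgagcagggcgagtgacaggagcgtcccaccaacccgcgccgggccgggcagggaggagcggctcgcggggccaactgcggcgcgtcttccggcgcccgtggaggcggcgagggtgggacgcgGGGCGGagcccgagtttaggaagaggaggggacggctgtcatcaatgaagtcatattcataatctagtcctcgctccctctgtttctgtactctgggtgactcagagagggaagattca
The window of Bmi1 held 6 GC boxes, some of them overlapping, and no CCAAT box. That of Smarca2 held 2 GC boxes and that of Cbx7 held 1, with 1 CCAAT box.

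The table held 44 promoters for 33 of the 39 members. A GC box lay in 84.1% of them, against 35.7% of all 32851 promoters of the table. The EGR site GCGNGGGCG, which can overlap a GC box, lay in 18.2% of member promoters and 5.6% of all. The E2F sites TTTCCCGC and TTTGGCGC, searched together, lay in 11.4% and 1.6%. The CCAAT box was at 34.1% and 37.4%. All motifs were searched on both strands. The table includes many predicted genes, several members have more than 1 promoter in it, and a match of letters does not show a bound site. Its promoters were not limited to genes expressed in these cells or matched for GC content. Among MAA-regulated genes, the study found SP1 and EGR family motifs enriched over genes not expressed in TM3 cells. Against expressed genes without an MAA response it saw no enrichment. A comparison of the members with expressed genes was not made.

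Calls by the fold criterion were counted first. At 5 mM, 0 of 60 member probes were called at 3 h, 4 at 8 h and 1 at 24 h. Of all probes 3.76%, 5.55% and 5.62% were called, and of the 24743 well above background on all arrays 5.1%, 6.8% and 5.6%. At 8 h the share of member probes, 6.7%, was near that of these bright probes. At 1 mM no member probe was called at 3, 8 or 24 h. There 1.95%, 2.37% and 4.68% of all probes were called, and 2.6%, 2.8% and 5.3% of bright probes. By the limma test alone, at a Benjamini-Hochberg adjusted p under 0.05, there were 2, 3 and 8 member probes past the threshold at 1 mM.

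Without a fold criterion more member probes passed at 5 mM. At 3 h, 4 member probes were higher and 16 lower by adjusted p, against 11.8% and 12.3% of all probes. At 8 h the counts were 12 higher and 17 lower, against 15.4% and 15.0%. At 24 h they were 8 higher and 18 lower, against 14.6% and 15.8%. As member probes are brighter than most, the closer background is that of the 24743 probes well above background on all arrays, of which 18.2% were higher and 19.3% lower at 3 h, 22.8% and 23.6% at 8 h, and 20.0% and 24.2% at 24 h. Of the 57 member probes in that class, 4 were higher and 16 lower at 3 h, 11 and 17 at 8 h, and 8 and 18 at 24 h. With both directions counted, these shares are near those of the other bright probes. The counts fell when 1 array of the condition was left out, to 0 or 2 higher and 11 lower at 3 h, 3 higher and 8 or 10 lower at 8 h, and 1 or 4 higher and 6 or 9 lower at 24 h. The median log2 ratio of member probes was -0.13, -0.08 and -0.14, beside -0.01, -0.02 and -0.06 for these bright probes and -0.10, -0.04 and 0.03 for all probes.

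At 1 mM, 0 member probes were higher and 2 lower at 3 h, against 2.71% and 1.91% of all probes. At 8 h, 1 was higher and 2 were lower, against 3.40% and 2.13%. At 24 h, 4 were higher and 4 lower, against 6.66% and 4.66%. Replicate arrays gave the same sign for 48, 52 and 53 of 60 member probes at 5 mM and for 37, 45 and 48 at 1 mM, at 3, 8 and 24 h. Centring each array on its own median moved the median of all probes by 0.10 at 5 mM 3 h and left 3 member probes higher and 8 lower there, 5 and 12 at 8 h, and 3 and 9 at 24 h.

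**Figure D1:**
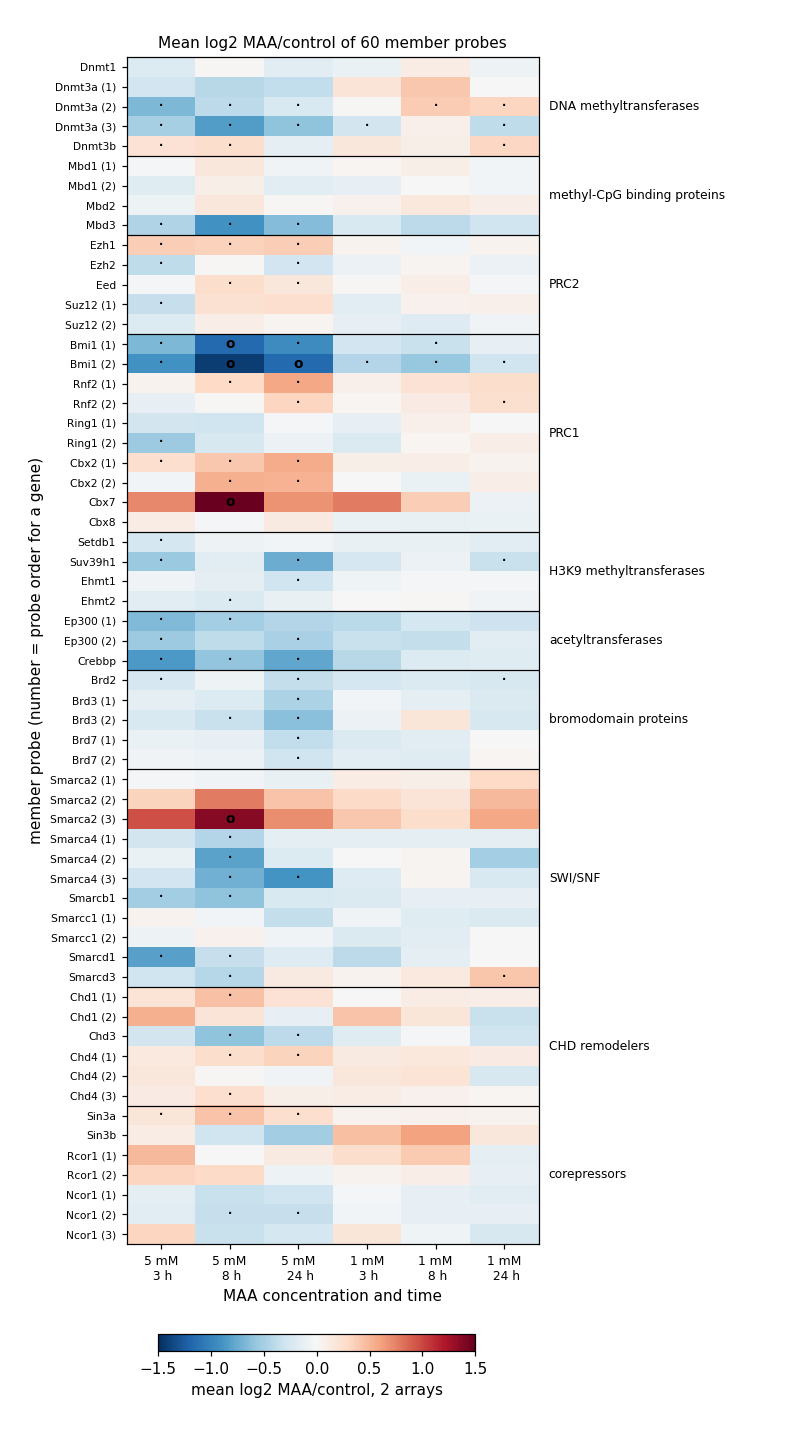
Mean log2 MAA/control of the 60 member probes (rows, grouped by role, with numbers for several probes of a gene) in the 6 conditions (columns), each from 2 arrays. Circles mark called values and dots other values with an adjusted p under 0.05. The darkest blue cells are both Bmi1 probes at 5 mM 8 h, at -1.16 and -1.42, while the darkest red cells are Cbx7 at 1.48 and the dimmest probe of Smarca2.

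Bmi1, the PRC1 subunit that stimulates the ubiquitin ligase, was lower in MAA on both of its probes and on every array. Probe A_51_P121547 read -0.85 and -0.96 on the 2 arrays at 5 mM 3 h, -1.34 and -1.5 at 8 h, and -1.12 and -1.22 at 24 h. It read -0.41 and -0.48 at 1 mM 3 h, -0.57 and -0.57 at 8 h, and -0.21 and -0.40 at 24 h. The 5 mM arrays all lay below the 1 mM arrays.

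The means of this Bmi1 probe at 5 mM were -0.90, -1.42 and -1.17 at 3, 8 and 24 h (SE 0.072 each), with adjusted p of 0.000139, 1.7e-05 and 4.16e-05. At 8 h this was a 2.68-fold decrease. At 1 mM its means of -0.44, -0.57 and -0.30 had adjusted p of 0.0178, 0.00705 and 0.0357. Probe A_52_P39157, the brighter of the pair, read -0.56 and -0.80 at 5 mM 3 h, -1.19 and -1.14 at 8 h, and -0.94 and -0.95 at 24 h. Its arrays at 1 mM lay between -0.34 and -0.11. It was called at 8 h only (2.24-fold lower, adjusted p = 2.51e-05), and at 24 h it was 1.93-fold lower, just under the fold criterion. Across both probes 24 of 24 array values were below 0.

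The decrease of Bmi1 depended on concentration at 8 and 24 h. For A_51_P121547 the 5 mM mean was below the 1 mM mean by a log2 difference of -0.85 at 8 h (SE 0.10, adjusted p = 0.00393) and -0.87 at 24 h (adjusted p = 0.00369). Within slides this difference was -0.77 and -0.93 at 8 h and -0.91 at 24 h. At 3 h neither probe passed this contrast. At 5 mM the 8 h value was also below the 3 h value, by -0.52 (adjusted p = 0.0334) and, for A_52_P39157, by -0.48 (adjusted p = 0.0312). No contrast between times, here or for the members below, passed with each array centred on its median or the 5 mM arrays fitted alone.

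**Figure D2:**
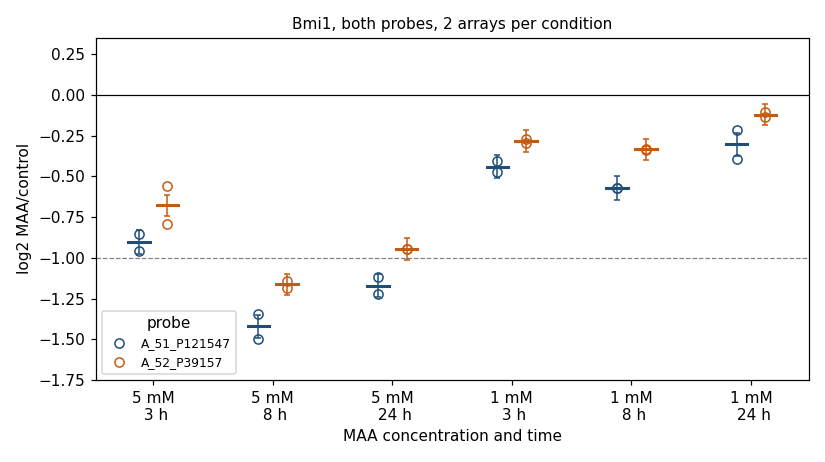
Log2 MAA/control of Bmi1 by condition for its 2 probes, with a circle for each array, a bar for the mean of 2 arrays and whiskers for its SE. The dashed line is the 2-fold decrease. Every circle lies below 0, and the circles at 5 mM 8 h, down to a 2.68-fold decrease in the mean, are the lowest of each probe.

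The other PRC1 subunits did not share 1 direction. Cbx7, a chromodomain subunit, read 1.52 and 1.44 on its arrays at 5 mM 8 h, a 2.78-fold increase that was called (mean 1.48, SE 0.33, adjusted p = 0.0112). At 3 h its arrays read 1.43 and 0.01, and at 24 h 0.93 and 0.42, so that replicates disagreed at 3 h and neither time passed (adjusted p = 0.177 and 0.18). At 1 mM its arrays ranged from -0.21 to 1.24. The Cbx7 signal was low, between 49.8 and 154 at 5 mM 8 h, and with normexp background correction, which shrinks ratios of dim probes, the mean there was 0.82 (adjusted p = 2.17e-05), under the fold criterion. Without 1 of its arrays at 8 h the adjusted p was 0.102 (replicate 1 left out) or 0.0859 (replicate 2 left out).

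Cbx2, also a chromodomain subunit, read 0.28 and 0.23 at 5 mM 3 h, 0.40 and 0.42 at 8 h, and 0.49 and 0.63 at 24 h on A_52_P13730. It was higher at each time (adjusted p = 0.0175, 0.00147 and 0.000355), and at 1 mM its 6 arrays stayed between 0.02 and 0.12. The 24 h mean of 0.56 exceeded that at 1 mM by 0.51 (adjusted p = 0.0121) and that at 3 h by 0.31 (adjusted p = 0.0446). The dim probe A_51_P300245 was higher at 8 and 24 h, with means of 0.54 and 0.53, and at -0.04 at 3 h.

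Rnf2, the catalytic ubiquitin ligase, was highest at 24 h. A_51_P382253 read 0.14 and -0.05 at 5 mM 3 h, 0.36 and 0.24 at 8 h, and 0.71 and 0.45 at 24 h. A_52_P149743 read -0.07 and -0.17, then 0.03 and 0.00, then 0.35 and 0.29. Both probes were higher at 24 h (means 0.58 and 0.32, adjusted p = 0.00247 and 0.00406) and both rose between 3 and 24 h, by 0.53 and 0.44 (adjusted p = 0.0316 and 0.00993). At 1 mM 24 h they had means of 0.27 and 0.25, of which the second passed (adjusted p = 0.0324). Of the remaining PRC1 members, Cbx8 passed no test, and 1 of the 2 probes of Ring1 was lower at 3 h.

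PRC2 members changed by small amounts and not in 1 direction. Ezh2, a catalytic subunit, read -0.34 and -0.42 at 5 mM 3 h, 0.04 and 0.00 at 8 h, and -0.28 and -0.30 at 24 h. It was lower at 3 and 24 h (adjusted p = 0.00269 and 0.00793) and not at 8 h, and the 8 h mean exceeded the 3 h mean by 0.40 (adjusted p = 0.0391). At 1 mM its arrays lay between -0.15 and 0.09. Suz12, a core subunit, read -0.29 and -0.39 at 3 h on A_51_P214796, then 0.32 and 0.12 at 8 h and 0.34 and 0.16 at 24 h. It was lower at 3 h (adjusted p = 0.0251), and its 8 and 24 h means exceeded the 3 h mean by 0.57 and 0.59 (adjusted p = 0.0452 and 0.0177). Its other probe had the same signs at 5 mM and passed no test. None of these differences of Ezh2 and Suz12 between times passed with each array centred on its median.

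Ezh1 and Eed, given here after their values were seen, were higher where they passed. Ezh1, the alternative catalytic subunit, was higher at all 3 times at 5 mM, with means of 0.37, 0.35 and 0.37 (SE 0.083) and adjusted p of 0.0146, 0.0152 and 0.0122. Its arrays at 3 h, 0.55 and 0.19, were further apart than at 8 or 24 h. At 1 mM its arrays lay between -0.04 and 0.10. Eed, which binds the methylated histone, was higher at 8 and 24 h, by 0.26 and 0.17 (adjusted p = 0.00628 and 0.0403).

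Among the DNA methyltransferases, Dnmt3a, a de novo enzyme, was lower at 5 mM. Probe A_52_P30497 read -0.67 and -0.67 at 3 h, -0.34 and -0.44 at 8 h, and -0.21 and -0.25 at 24 h. At 1 mM it read 0.05 and -0.02, then 0.37 and 0.39, then 0.35 and 0.29, so that at 8 and 24 h the concentrations lay on opposite sides of 0. The 5 mM mean was below the 1 mM mean by -0.68, -0.77 and -0.55 at 3, 8 and 24 h (adjusted p = 0.00938, 0.00236 and 0.00741). Within slides these differences were -0.72 at 3 h, -0.71 and -0.83 at 8 h, and -0.56 at 24 h.

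The 3 probes of Dnmt3a did not give the same picture at 1 mM. The dimmer A_52_P169048 was lower at 5 mM, with means of -0.50, -0.83 and -0.60 (adjusted p = 0.000815, 6.14e-05 and 0.00028), and differed between concentrations at 8 h by -0.91 (adjusted p = 0.00183). At 1 mM 24 h it read -0.42 and -0.34, lower than control (adjusted p = 0.00863), where A_52_P30497 was higher (mean 0.32, adjusted p = 0.012). The brightest Dnmt3a probe, A_52_P76146, had means of -0.29, -0.41 and -0.37 at 5 mM with SE 0.19 and passed no test. Which transcripts each probe detects was not examined.

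Dnmt3b, the other de novo enzyme, read 0.26 and 0.17 at 5 mM 3 h, 0.25 and 0.29 at 8 h, and -0.12 and -0.16 at 24 h. It was higher at 3 and 8 h (adjusted p = 0.0348 and 0.0106). Its 3 h mean missed the threshold under 11 of 21 alternatives. The 24 h mean was below the 8 h mean by -0.41 and below the 3 h mean by -0.35 (adjusted p = 0.0258 and 0.0282). At 1 mM 24 h its arrays read 0.30 and 0.32 (adjusted p = 0.017), above those at 5 mM, with a difference of -0.45 for 5 mM minus 1 mM (adjusted p = 0.0189). Dnmt1, the maintenance enzyme, passed no test, with arrays between -0.27 and 0.19.

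Mbd3, a subunit of the NuRD complex, was chosen after its values were seen. It read -0.66 and -0.24 at 5 mM 3 h, -0.92 and -0.89 at 8 h, and -0.73 and -0.57 at 24 h. It was lower at each time, and 1.87-fold at 8 h (mean -0.90, SE 0.11, adjusted p = 0.000689). At 1 mM its arrays lay between -0.48 and -0.10 and passed no test. Mbd1 and Mbd2, which read methylated CpG, passed no test in any condition.

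Of the H3K9 methyltransferases, Suv39h1 changed most. It read -0.58 and -0.53 at 5 mM 3 h, -0.20 and -0.12 at 8 h, and -0.81 and -0.68 at 24 h. It was lower at 3 and 24 h (adjusted p = 0.000591 and 0.000127) and nearer control at 8 h (adjusted p = 0.0872). The 8 h mean exceeded the 3 h mean by 0.39 (adjusted p = 0.0484), and the 24 h mean was below the 8 h mean by -0.58 (adjusted p = 0.00858). Neither difference passed with each array centred on its median. At 1 mM 24 h Suv39h1 read -0.37 and -0.29 (adjusted p = 0.0157), and the 5 mM value there was lower by -0.41 (adjusted p = 0.0291). Setdb1 was lower at 3 h, at -0.26, Ehmt2 at 8 h, at -0.22, and Ehmt1 at 24 h, at -0.30.

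Both acetyltransferases lay below control on every array. Over the 2 probes of Ep300 and the 1 of Crebbp, 36 of 36 array values were below 0. These genes too were singled out after their values were seen. Between 51.25% and 56.52% of bright probes had a mean below 0 in a condition. The share of probes below 0 on every array was not counted. Crebbp read -0.89 and -0.83 at 5 mM 3 h, -0.64 and -0.55 at 8 h, and -1.02 and -0.54 at 24 h. Its means of -0.86, -0.59 and -0.78 (SE 0.13) had adjusted p of 0.00275, 0.0121 and 0.00367. Ep300 was lower at 3 h on both probes, with means of -0.66 and -0.54 (adjusted p = 0.0208 and 0.0278), while at 8 and 24 h each probe passed at 1 of the times. No acetyltransferase probe passed at 1 mM.

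At 5 mM 24 h, 5 of 5 probes of the bromodomain genes Brd2, Brd3 and Brd7 were lower by adjusted p, where 15.8% of all probes and 24.2% of bright probes were. The 5 probes stand for 3 genes, and the group as a whole was not tested. Of their array values there, 10 of 10 were below 0. Brd3, which binds acetylated histones, read -0.72 and -0.53 on A_52_P491842 (adjusted p = 0.0016), -0.34 and -0.33 at 8 h (adjusted p = 0.0248), and -0.38 and -0.08 at 3 h. At 1 mM 8 h it read 0.18 and 0.18, and the difference between concentrations was -0.52 (adjusted p = 0.045). Brd7, also a SWI/SNF subunit, read -0.35 and -0.24 at 5 mM 24 h and 0.03 and 0.04 at 1 mM 24 h on A_51_P157554, a difference of -0.33 (adjusted p = 0.0424). Brd2, the member with the highest mean signal, was at -0.25, -0.07 and -0.36 at 5 mM and at -0.24 at 1 mM 24 h (adjusted p = 0.0196, 0.48, 0.00299 and 0.0422).

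Of 11 SWI/SNF probes, 6 were lower and 1 higher at 5 mM 8 h, where 15.0% of all probes were lower and 15.4% higher. Among bright probes 23.6% were lower and 22.8% higher. Of the 6 lower SWI/SNF probes, 3 are probes of Smarca4. At 3 h 2 were lower and at 24 h 1, and the difference in counts between times was not tested. Smarcb1, a core subunit, read -0.49 and -0.55 at 3 h, -0.70 and -0.50 at 8 h, and -0.33 and -0.12 at 24 h. Its means at 3 and 8 h had adjusted p of 0.00189 and 0.000703, and at 8 h it was below 1 mM by -0.48 (adjusted p = 0.0308). Smarcd1, an accessory subunit, read -0.80 and -0.84 at 3 h, -0.55 and -0.13 at 8 h, and -0.24 and -0.13 at 24 h. Its 8 h mean had an adjusted p of 0.0484 and missed the threshold under 15 of 21 alternatives. Its 3 h mean of -0.82 (adjusted p = 0.00132) returned toward control, with a difference of 0.63 between 24 and 3 h (adjusted p = 0.0316).

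Smarcd3, a related subunit, read -0.29 and -0.30 at 5 mM 3 h, -0.58 and -0.29 at 8 h, and 0.06 and 0.21 at 24 h. It was lower at 8 h (adjusted p = 0.0117), rose from there to 24 h by 0.57 (adjusted p = 0.0454), and at 8 h was below 1 mM by -0.57 (adjusted p = 0.0402). At 1 mM 24 h it read 0.35 and 0.48 (adjusted p = 0.0349). Smarca4, an ATPase of the complex and second in signal among members neither called nor past a contrast between conditions, was lower at 8 h on all 3 probes, at -0.44, -0.81 and -0.72 (adjusted p = 0.00691, 0.00867 and 0.0192). The dimmest of them, A_52_P147044, was also lower at 24 h, with a mean of -0.89 (adjusted p = 0.00779). Its MAA channel was not well above background there, so the size of this decrease is uncertain. Smarcc1 passed no test, and its brighter probe differed between replicates at 3 h, at -0.63 and 0.74.

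Smarca2, the other ATPase, was called on 1 of 3 probes. At 5 mM 8 h A_52_P388829 read 1.21 and 1.53 (mean 1.37, SE 0.30, adjusted p = 0.0108). Its control channel was near background on both arrays, and its MAA channel was well above it on 1, so the change was at least 1.02-fold. A bound is the higher of the lowest signal measured well above background and the dim signal itself, set against the brighter channel. With normexp background correction the mean was 0.12 (adjusted p = 0.163), and without replicate 1 or replicate 2 of this condition the adjusted p was 0.0627 or 0.122. The brightest Smarca2 probe, A_51_P450052, read -0.05 and -0.06 there (adjusted p = 0.854), and A_51_P504037 read 0.77 and 0.79 (adjusted p = 0.0532). The probes of Smarca2 thus differed in sign and call.

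**Figure D3:**
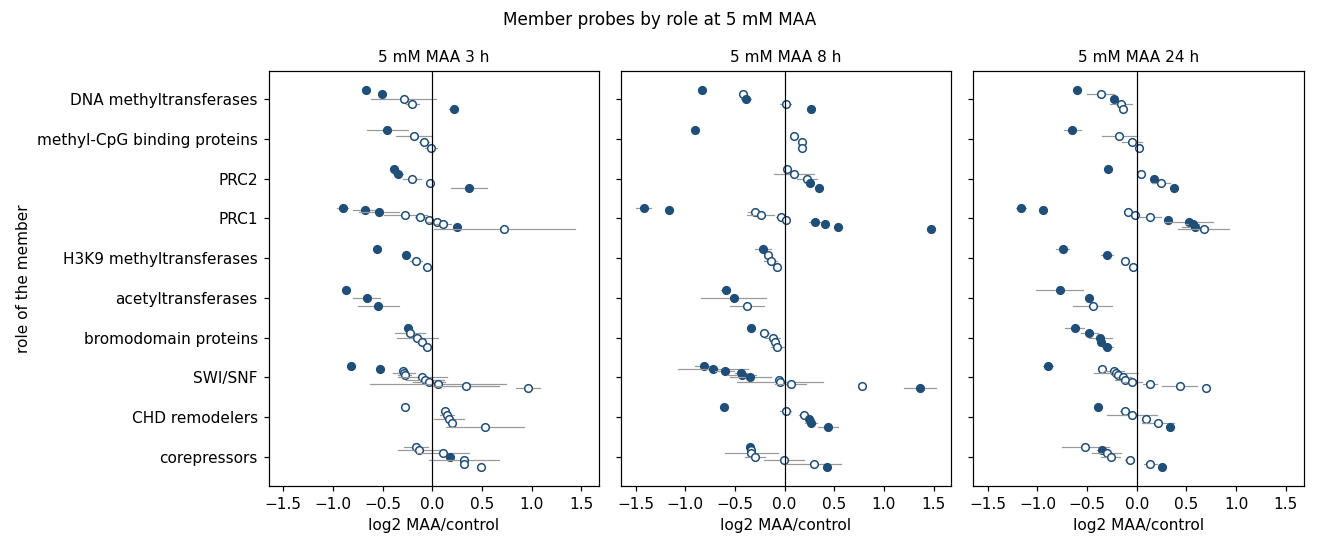
Mean log2 MAA/control (x axis) of each member probe at 5 mM MAA, grouped by role (y axis), in panels for 3, 8 and 24 h. Filled circles had an adjusted p under 0.05, and each grey line joins the 2 arrays. All 3 acetyltransferase probes lie left of 0 in each panel, all 5 bromodomain probes are filled and left of 0 at 24 h, and PRC1 spreads from -1.42 to 1.48 at 8 h.

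CHD remodelers and corepressors held no called probe. Sin3a, a scaffold that holds histone deacetylases, read 0.20 and 0.16 at 5 mM 3 h, 0.43 and 0.42 at 8 h, and 0.26 and 0.24 at 24 h. It was higher at each time (adjusted p = 0.0385, 0.000569 and 0.00726). At 3 h Sin3a missed the threshold under 14 of 21 alternatives. At 1 mM its 6 arrays lay between 0.04 and 0.08, and at 8 h the concentrations differed by 0.36 (adjusted p = 0.0216). At 5 mM 8 h, 3 of 6 CHD probes were higher, 1 of the 2 of Chd1 and 2 of the 3 of Chd4, and 1, for Chd3, was lower. There 15.4% of all probes were higher and 15.0% lower, and among bright probes 22.8% and 23.6%. Of 7 corepressor probes, 1 of Ncor1 was lower at 8 and 24 h, and Rcor1 passed no test. Ehmt2, next in signal after Smarca4 among members neither called nor past a contrast, was at -0.16, -0.22 and -0.11 at 5 mM (adjusted p = 0.114, 0.0351 and 0.243).

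In all, 16 members were called or differed between conditions, and 23 did not. How many of all genes on the array would meet this rule was not counted, so these counts have no background. Of the 23, 22 had a probe. Of these 22, 15 had an adjusted p under 0.05 in at least 1 condition, and 7 (Dnmt1, Mbd1, Mbd2, Cbx8, Smarcc1, Sin3b and Rcor1) in none. Leaving out Sin3b, the condition means of their probes lay between -0.35, for Smarcc1, and 0.49, for Rcor1.

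The response at 5 mM was set against that at 1 mM and against itself over time. At 3 h 1 member probe differed between concentrations, at 8 h 8 probes of 6 genes, and at 24 h 7 probes of 6 genes, against 3.40%, 10.1% and 8.41% of all probes. Of these 8 h differences 7 were negative, and of the 24 h differences 6. This split by direction was not counted over all probes. No share of bright probes was counted for any contrast. Between 8 and 3 h at 5 mM 5 member probes differed, between 24 and 8 h 3, and between 24 and 3 h 7, against 5.10%, 8.91% and 15.8% of all probes. These 31 differences came from 17 probes of 14 genes. The 2 concentrations were compared with control cells of the same time, and whether these were the same cultures is not given in the sources used here. The time contrasts were the less stable: leaving out any 1 of the 12 arrays brought the count for 8 against 3 h to 0 or 1, for 24 against 8 h to between 0 and 2 and for 24 against 3 h to between 0 and 6, and all 3 counts were 0 when the 5 mM arrays were fitted alone.

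**Figure D4:**
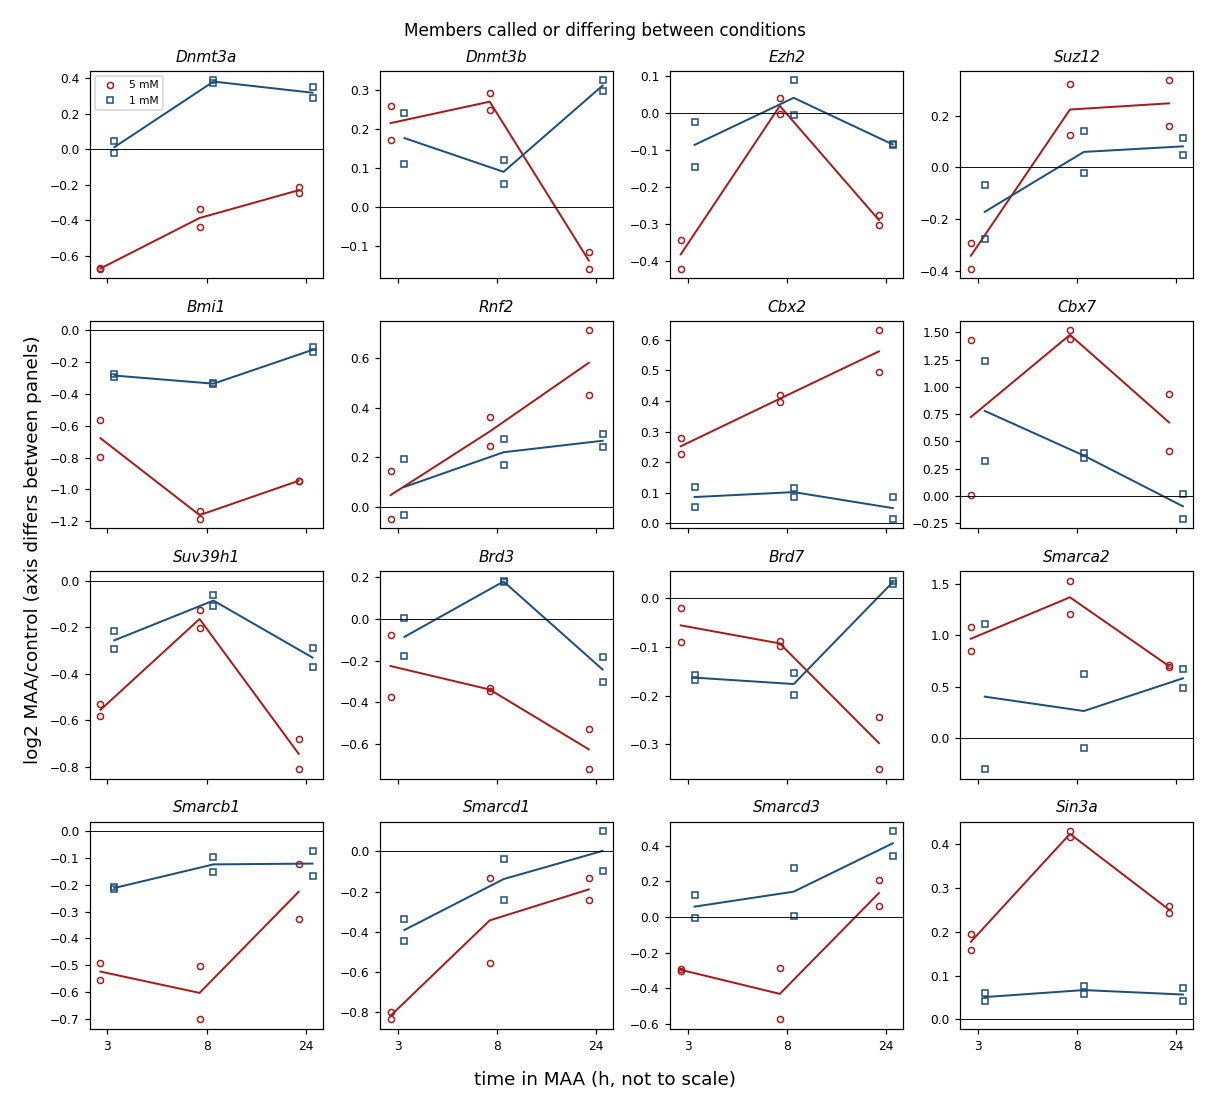
Log2 MAA/control at 3, 8 and 24 h of the 16 members that were called or differed between conditions, 1 probe each, with red circles for arrays at 5 mM, blue squares for arrays at 1 mM and lines through the means. The y axis differs between panels. The Dnmt3a probe shown, A_52_P30497, lies below 0 at 5 mM and above it at 1 mM from 8 h. Another Dnmt3a probe, A_52_P169048, was at -0.38 at 1 mM 24 h. Ezh2 and Suv39h1 are nearer 0 at 8 h than at 3 or 24 h at 5 mM. Differences between times did not pass with each array centred on its median.

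Other chromatin genes were read from a list of 148 symbols, of which 118 had a probe. At 5 mM 17, 20 and 13 of them were higher and 33, 33 and 32 lower by adjusted p at 3, 8 and 24 h. Their median was -0.14, -0.06 and -0.11. Of all probes 11.8%, 15.4% and 14.6% were higher and 12.3%, 15.0% and 15.8% lower. Of bright probes 18.2%, 22.8% and 20.0% were higher and 19.3%, 23.6% and 24.2% lower. By the fold criterion at 5 mM, 1 of the 118 was called higher and 2 lower at 3 h. At 8 h 3 were called lower and at 24 h 1, with none higher. The called share of all probes was 3.76%, 5.55% and 5.62%, and that of bright probes 5.1%, 6.8% and 5.6%. The called genes of this list at 5 mM were Baz2a, an ISWI-type subunit, at 1.03 at 3 h, and, on the lower side, Kmt5b, Dnmt3l and Setd7. Kmt5b, a histone H4 methyltransferase, read -2.15 and -2.33 at 3 h, -1.54 and -1.52 at 8 h, and -1.02 and -1.10 at 24 h (adjusted p = 1.26e-05, 1.44e-05 and 6.14e-05). Dnmt3l, the cofactor of Dnmt3a, was at -1.83 at 3 h and -1.20 at 8 h (adjusted p = 0.000303 and 0.00157), and Setd7, a histone H3 methyltransferase, at -1.04 at 8 h (adjusted p = 0.00276).

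Proliferation genes were measured beside the members, as Ezh2, Suv39h1 and Dnmt1 are known to be higher in dividing cells. Of 23 with a probe, 12, 11 and 19 were lower at 5 mM 3, 8 and 24 h, with medians of -0.27, -0.20 and -0.51. Of all probes 12.3%, 15.0% and 15.8% were lower there, and of bright probes 19.3%, 23.6% and 24.2%. The counts on the higher side were 1, 3 and 0, against 11.8%, 15.4% and 14.6% of all probes. At 1 mM 2, 0 and 4 were lower, against 1.91%, 2.13% and 4.66% of all probes. The part of the proliferation genes in the values of the members was not tested.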

How the data were processed

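RNA from TM3 cells was hybridised to 12 Agilent 2-colour arrays, 2 for each of 6 conditions. The authors scanned the arrays and extracted the signals with Feature Extraction 9.5.3.1, and the deposited scanner output holds background-subtracted, dye-normalized signal intensities for both channels. The deposited value table holds log10 ratios of MAA over control, rounded to 2 decimals, and served as an alternative.

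Control spots and outlier spots were left out, and log2 ratios of processed signal intensities were averaged per probe. Ratios of both dye orientations were turned to MAA over control. One limma 3.58.1 model (R 4.3.3), with a mean per condition and 6 residual degrees of freedom, was fitted to all 41174 probes, and p-values were adjusted by Benjamini-Hochberg over all of them. The fit was tested on simulated data. A call was p under 0.005 with a fold over 2 at 5 mM or 1.5 at 1 mM. Contrasts passed at an adjusted p under 0.05. Precision is limited by 2 arrays a condition.

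Probes were named by accession through the RefSeq gene table, since the gene-name column held accessions, and 22147 of them received a symbol. A member was described array by array if called or past a contrast, by its called probe of highest signal and by probes that disagreed. Of the members neither called nor past a contrast, the 3 of highest signal were also named. Members and gene lists were chosen with earlier results of these data known. Alternatives covered background correction, deposited ratios, centring, dim probes, outlier spots, blocks, arrays in the fit, probe matching, 1 probe a member, call rules and leaving out each array. The replicate number is also the dye orientation. The error model of the study's own analysis was not run.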

Additional observations from a re-analysis of the deposited data

Results flagged for a closer look

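Each value here is a difference in log2 MAA/control between 2 conditions whose limma contrast had an adjusted p under 0.05. Between 5 mM and 1 mM at 3 h, Dnmt3a (A_52_P30497) differed by -0.68. At 8 h, 5 mM minus 1 mM was -0.77 for this probe of Dnmt3a and -0.91 for A_52_P169048, -0.83 and -0.85 for Bmi1 (A_52_P39157 and A_51_P121547), -0.52 for Brd3 (A_52_P491842), -0.48 for Smarcb1, -0.57 for Smarcd3 and 0.36 for Sin3a. At 24 h it was -0.55 for Dnmt3a (A_52_P30497), -0.45 for Dnmt3b, -0.82 and -0.87 for Bmi1, 0.51 for Cbx2 (A_52_P13730), -0.33 for Brd7 (A_51_P157554) and -0.41 for Suv39h1.

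Over time at 5 mM, 8 h minus 3 h was 0.40 for Ezh2, 0.57 for Suz12 (A_51_P214796), -0.48 and -0.52 for Bmi1 (A_52_P39157 and A_51_P121547) and 0.39 for Suv39h1. The difference of 24 h minus 8 h was -0.41 for Dnmt3b, 0.57 for Smarcd3 and -0.58 for Suv39h1. That of 24 h minus 3 h was 0.44 for Dnmt3a (A_52_P30497), -0.35 for Dnmt3b, 0.59 for Suz12 (A_51_P214796), 0.53 and 0.44 for Rnf2 (A_51_P382253 and A_52_P149743), 0.31 for Cbx2 (A_52_P13730) and 0.63 for Smarcd1.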

How the results depend on the processing

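Bmi1 at 5 mM 8 h kept its calls on both probes under every alternative run, while Cbx7 and Smarca2 did not. Over 2012 recomputed values of 96 named results, 1827 kept direction and side of the threshold, 128 lost it, 51 gained it, 6 moved and 0 reversed. Called member probes at 5 mM 3, 8 and 24 h (0, 4 and 1) became 20, 29 and 26 by adjusted p alone, and at 1 mM (0 each) 2, 3 and 8. Median centring gave 1 call at 5 mM 3 h, normexp 2 at 8 h, and 1 probe per member 2 at 8 h and 0 at 24 h. Leaving out 1 array gave 0 to 1, 2 to 4 and 1 to 2 calls at 5 mM, and 0 to 1, 0 to 1 and 0 to 0 at 1 mM. The array left alone in its condition was then assumed to vary like those of the other conditions.

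Differences of 5 mM from 1 mM at 3 h (1 probe) became 4 with normexp, 6 with the deposited ratios, 0 with median centring or 1 probe per member, and 5 with dim probes left out. At 8 h (8) they became 14 with normexp or dim probes left out and 4 with median centring or 1 probe per member, and at 24 h (7) 2 with median centring and 4 with 1 probe per member. Leaving out 1 array gave 0 to 1, 4 to 8 and 2 to 6. Of the time contrasts, 8 against 3 h (5) became 11 with the deposited ratios, 0 with median centring or the 5 mM arrays alone and 10 with dim probes left out. The contrast of 24 against 8 h (3) became 7 with normexp or dim probes left out, 11 with the deposited ratios, 5 with slide as a block, and 0 with median centring or the 5 mM arrays alone. That of 24 against 3 h (7) became 13 with the deposited ratios, 15 with dim probes left out, and 0 with median centring or the 5 mM arrays alone. Leaving out 1 array gave 0 to 1, 0 to 2 and 0 to 6. The cause of these shifts was not tested.

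With the replicate number as a block, 5 probes differed between concentrations at 3 h and 14 at 24 h, and 13, 10 and 17 in the time contrasts of 8 against 3 h, 24 against 8 h and 24 against 3 h. Deviations of same-numbered arrays correlated between 0.075 and 0.514 over 15 pairs of conditions, 14 of them over 0.1 and 1 under it. Over bright probes these correlations ran from 0.039 to 0.773. Between 5 mM and 1 mM they were 0.77, 0.75 and 0.74 at 3, 8 and 24 h, a pairing that the concentration contrasts without the block do not use. Pairing was to be accepted only with every pair over 0.1, so the counts in the results come from the fit without the block, although most pairs deviated together. Matching by accession or synonym was the setting used, so it was not run separately. Matching by accession alone and centring on bright probes were chosen after seeing the data. With 2 arrays a condition, the SE of a member's mean ran from 0.05, for Sin3a, to 0.41, for the dim probe of Sin3b, and set the smallest difference that could pass.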
